A study of Mus musculus with 217 samples.

Results

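Inhba, Il11, Hbegf, F3 and Cthrc1 are 5 genes for signalling or matrix proteins that leave the cell or act at its surface. They are described here across single cells from the growth plate of the tibia. The mice were C57/BL, wild type and 7 days old. They are 5 of the 9739 measured genes and were chosen by values from these same cells, namely their pairwise correlation, their detection together and their relation to Col10a1, Spry2 and Fos. These values are therefore given as a description and support nothing further. All 217 deposited columns carry the same tissue, strain, genotype and age, and the labels tell neither animals nor batches apart. The cells are thus 1 sample of 1 group, no treated or mutant cells were compared, and no test across animals was possible. Every correlation below is Spearman's rho across cells that share this 1 sample, and it has no p-value. Values are on the deposited scale, taken as log2(x + 1), and a gene counts as detected in a profile where x is at least 1.

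In the growth plate, round resting chondrocytes give rise to columns of flat dividing cells, which then enlarge into prehypertrophic and hypertrophic cells that make collagen X. Secreted ligands time these steps. Inhba encodes the beta A chain of activin A, a ligand of the TGF-beta family. Il11 encodes interleukin 11, a cytokine of the IL-6 family that signals through its own receptor chain and the shared chain gp130. Hbegf encodes a ligand of the EGF receptor that is made as a membrane protein and released by shedding. F3 encodes tissue factor, a transmembrane receptor for a clotting factor, so it is a cell surface protein rather than a secreted one. Cthrc1 encodes a secreted protein with a short collagen repeat that was linked to noncanonical WNT signalling. Of the genes they are set against, Col10a1 encodes collagen X, Spry2 encodes an inhibitor that ERK signalling induces against itself, and Fos encodes a subunit of the AP-1 transcription factor.

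Columns that matched each other at r above 0.95 were averaged, since 52 columns formed 23 such sets, and 1 column that resembled a mixture was dropped. Of the profiles left, 11 had Acan (aggrecan, a cartilage proteoglycan) below 5. All the others, called chondrocyte profiles here, entered the relations below. The lowest Acan value inside this limit was 6.67 and the highest outside it was 2.91. All 15 genes of the chondrocyte list were measured, with a median detection of 100% of the chondrocyte profiles, and Sox9, which specifies chondrocytes, was detected in all of them. A limit to the label is Col2a1, the main cartilage collagen, which was detected in 21% and did not exceed 3.14. The 2 measured endothelial genes of 7 listed were detected in a median of 3.69% and the 4 measured macrophage genes of 7 in 8.24%. Genes listed for osteoblasts and perichondrial cells were found more often, with Col1a2 in 88.6%, Lum and Col6a1 in 98.9% each, Dcn in 40.9%, Col3a1 in 33.5% and Col1a1 in 13.64%. The number of genes detected in a profile had a median of 3463.5 and ran between 1326 and 4994, and sequencing depth is unknown.

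Each of the 5 genes was present at high values in some chondrocytes and at 0 in others. Inhba was detected in 120 chondrocyte profiles (68.2%, 95% exact Clopper-Pearson interval 60.8 to 74.99%, which like all intervals here covers counting error only). Its values had a lowest of 0, a median of 5.92 and a highest of 11.26, with 49 profiles at exactly 0 and 53 at 8 or above. The cells thus covered the whole range of the gene, and only 7 of them lay between 0 and 1. Il11 was detected in 72.2% of them (64.9 to 78.6%) at a median over all profiles of 4.34 and a highest value of 9.75. Hbegf was the most widely detected, in 77.3% (70.4 to 83.2%), with a median of 5.30 and a highest value of 9.69. F3 was detected in 58% (50.3 to 65.3%), with a median of 3.34 and a highest value of 11.61. Cthrc1 was detected in 99 profiles (56.2%, 48.6 to 63.7%), with a median of 3.62 and a highest value of 10.17. The intervals of F3 and Cthrc1 overlap almost wholly, and that of Hbegf lies above both. The unit behind x is not given per length, so the levels of different genes are not ranked against each other.

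**Figure D1:**
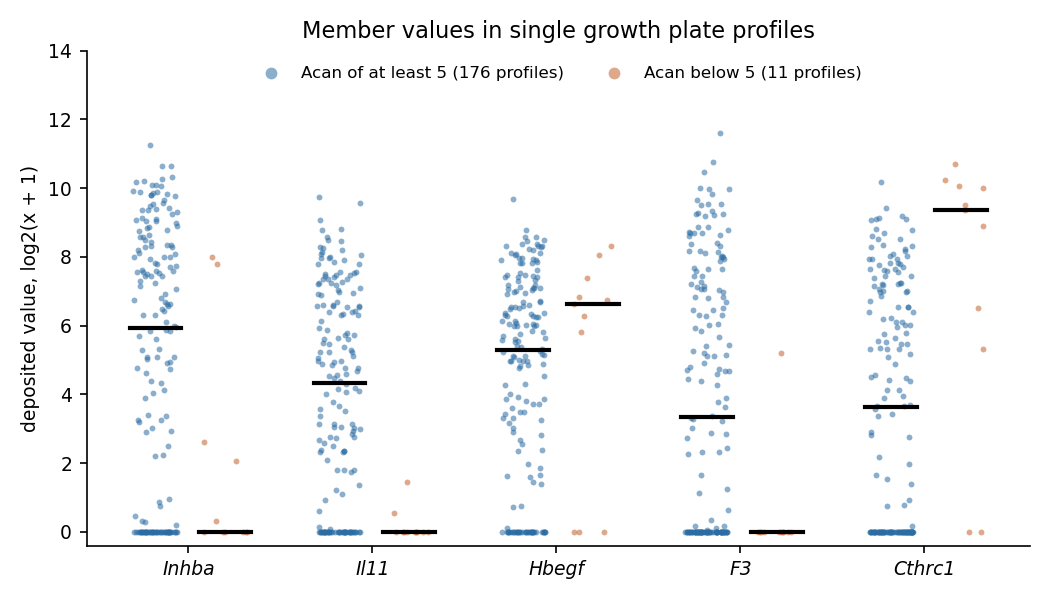
Deposited log2(x + 1) value of each gene in single profiles, with profiles of Acan at least 5 on the left of each pair and 11 profiles of Acan below 5 on the right. Each point is 1 profile and each black bar a median, and the medians of Cthrc1 were 3.62 on the left and 9.36 on the right.

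Values of repeated columns were close, which the way the sets were formed (r above 0.95 over all genes) largely fixes, so the values that follow are a description only. Over the 23 sets, the SD between repeats was 0.34 for Inhba, 0.22 for Il11, 0.36 for Hbegf, 0.28 for F3 and 0.48 for Cthrc1, on the log2 scale. The SD between chondrocyte profiles was 3.85, 3.06, 2.97, 3.74 and 3.47 for the same genes in the same order. Detection was alike within all 23 sets for Inhba and Il11, within 22 for Hbegf and F3 and within 21 for Cthrc1. The labels do not say what the repeats share, and an exact 0 can be a failed estimate. Detection also went with the number of genes detected. F3 was found in 20 of the 45 profiles with fewest genes (44.4%) and in 28 of the 44 with most (63.6%). For Cthrc1 these shares were 42.2% and 65.9%, for Hbegf 66.7% and 86.4%, and for Inhba 62.2% and 72.7%. Il11 was the exception, at 71.1% and 70.5%. The correlation of level with genes detected ran from -0.07 for Il11 to 0.13 for Cthrc1.

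The 11 profiles with Acan below 5 divided the set. Cthrc1, which osteoblasts also express, was detected in 9 of these 11 (81.8%, exact interval 48.2 to 97.7%), with values of 10.72, 10.24, 10.07, 10.01, 9.50, 9.36, 8.90, 6.53 and 5.33 and 2 profiles at 0. The 7 highest of these were also the profiles with Col1a1, the collagen of bone, between 11.50 and 13.28. Hbegf was detected in 77.3% of the chondrocyte profiles and in 8 of the 11 (72.7%, 39 to 94%). By contrast, Il11 was detected in 72.2% of the chondrocyte profiles and in 1 of the 11 (9.09%, 0.23 to 41.3%), at 1.44. F3 was likewise detected in 58% and in 1 of the 11, at 5.20. Inhba was detected in 68.2% and in 4 of the 11 (36.4%, 10.9 to 69.2%), where 2 profiles had 8.01 and 7.81 and the other 2 had 2.61 and 2.05. The plot of values by profile shows Cthrc1 and Hbegf on both sides of the Acan limit and Il11 and F3 almost only above it. The 11 profiles were not alike. The profile with Inhba at 7.81 had Col1a1 at 0, and the profile with Hbegf at 6.63 had Col1a1, Ibsp and Col1a2 all at 0. With 11 profiles of 1 sample, these differences were not tested.

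The 5 genes tended to be detected or undetected together. All 5 were detected in 43 chondrocyte profiles (24.4%, interval 18.3 to 31.5%) and none in 5 (2.84%, 0.93 to 6.50%). The product of the 5 single shares, as plain arithmetic for genes unrelated to each other, gives 21.8 and 0.65 profiles. Since the genes were chosen by their detection together, nothing is read from any contrast with the product. Profiles with 0 or 1 of the genes numbered 27, where the product gives 7.69, and those with 4 or 5 numbered 95, where it gives 79.6. The middle of the range was correspondingly thin, with 31 profiles holding exactly 3 genes against 59.3 from the product. At least 3 were detected in 71.6% of profiles (64.3 to 78.1%), where the product gives 138.9 profiles. Genes detected had no steady order along this count: the median was 3679 in profiles with none of the 5, 3403 with 1, 3333 with 2, 3072 with 3, 3390.5 with 4 and 3674 with all 5.

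**Figure D2:**
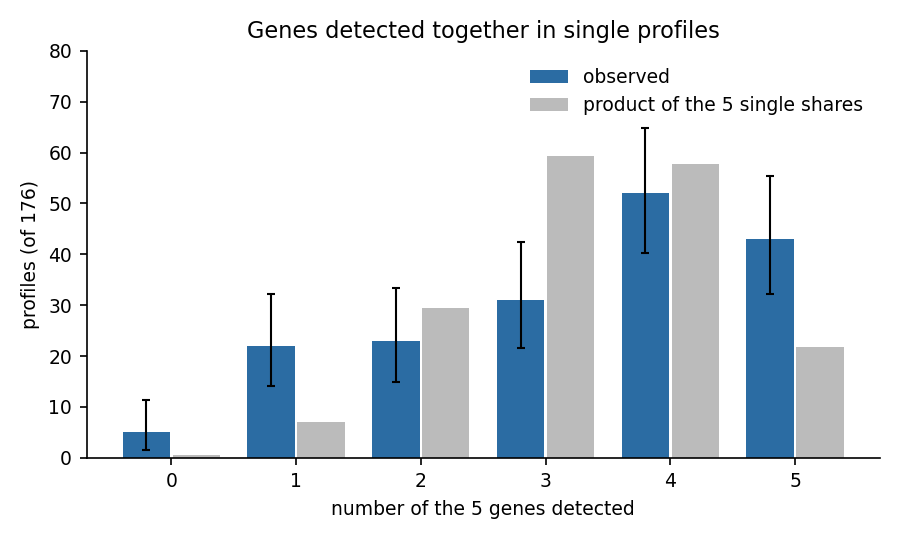
Number of chondrocyte profiles by how many of the 5 genes were detected. Blue bars are observed counts with 95% exact Clopper-Pearson intervals, grey bars are the counts that the product of the single shares gives. The observed counts exceed the product at 0, 1 and 5 genes and lie below it at 2, 3 and 4. Detection together was used in choosing the 5 genes.

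Pair by pair, the firmest link was between Hbegf and F3, at rho = 0.37 over all chondrocyte profiles. F3 was detected in 65.4% of the profiles with Hbegf and in 32.5% of the 40 without it. Il11 and Inhba followed at 0.36, with Il11 in 78.3% of the profiles that had Inhba and in 58.9% of the 56 that did not. Il11 correlated with F3 and with Hbegf at 0.33 each. The contrast in detection was widest by Il11: F3 was found in 69.3% of the profiles with Il11 and in 28.6% of the 49 without, and Cthrc1 in 66.9% and 28.6%. Inhba was less tied to F3 (0.23) and to Cthrc1 (0.20), which was detected in 60% of profiles with Inhba and 48.2% of those without.

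Over the 10 pairs the median rho was 0.27, with a range of 0.20 to 0.37. Of the 10, 9 were at 0.2 or above, and the exception, Inhba with Cthrc1, was at 0.197. Among the 5379 other genes detected in at least 20% of profiles, a rho of 0.2 or more was reached by 3.23% with Inhba, 3.36% with Il11, 2.47% with Hbegf, 2.99% with F3 and 3.94% with Cthrc1. Since the genes were chosen by these correlations, nothing is read from that contrast. Each gene was also set against the mean rank score of the remaining 4. Il11 was the most central at 0.49, followed by Hbegf at 0.46, F3 at 0.43, Inhba at 0.39 and Cthrc1 at 0.34.

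The relation was weaker among profiles with both genes detected, a setting that drops the zeros and so narrows the range of values. An exact zero can be a failed estimate, so presence and amount were not told apart. When only profiles with both genes of a pair detected were kept (67 profiles for F3 with Cthrc1, the smallest number), the median rho was 0.13 and 3 of the 10 pairs stayed at 0.2 or above: Inhba with Il11 at 0.23, Inhba with Hbegf at 0.22 and Hbegf with F3 at 0.20. Il11 with F3 was then at -0.03 and Inhba with Cthrc1 at -0.06. Partialling out the number of genes detected changed little, with a median of 0.28 and 9 pairs at 0.2 or above. With Spry2 partialled out the median was 0.20 and 5 pairs stayed at 0.2 or above. With Col10a1 partialled out it was 0.22 with 8 pairs, and with Sox9 partialled out 0.19 with 5 pairs.

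**Figure D3:**
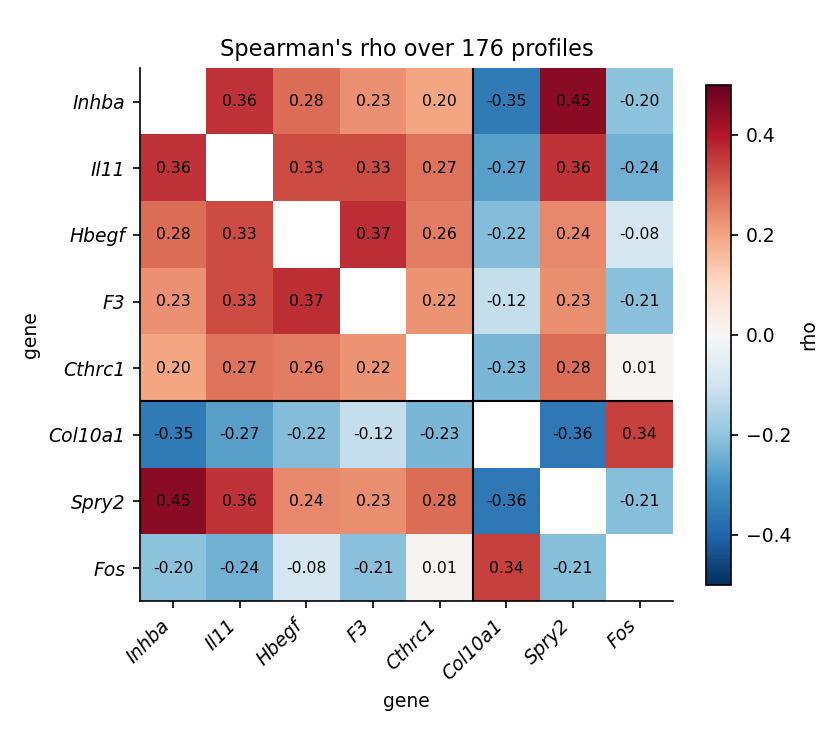
Spearman's rho over chondrocyte profiles for each pair of the 5 genes and of Col10a1, Spry2 and Fos, with genes on both axes and red for positive values. Values among the 5 genes run from 0.20 to 0.37, those of the 5 genes with Col10a1 are all negative and those of the 5 genes with Spry2 are all positive. Col10a1 with Fos is at 0.34 and Spry2 with Col10a1 at -0.36.

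All 5 genes tended to be lower where collagen X was high. The rho with Col10a1 was -0.35 for Inhba, -0.27 for Il11, -0.23 for Cthrc1, -0.22 for Hbegf and -0.12 for F3, with a median of -0.23. Of these 5, 4 were at -0.2 or below, against 3.27% of the other genes, a contrast that the choice of genes fixes. Inhba had a median of 5.63 in profiles with Col10a1 and 7.52 in the 39 without it. Il11 had 3.67 in profiles with Col10a1 and 5.22 in those without, and Cthrc1 2.83 and 5.34. F3 had 3.36 with Col10a1 and 3.31 without. Its rho with Col10a1 depended on the profiles used: it was -0.27 where both genes were detected and -0.03 with no Acan minimum. That of Il11 did too, at -0.08 and -0.15 in these settings. Hbegf was at -0.34 without the 10% of profiles with fewest genes, and Inhba at -0.25 where both genes were detected. Col10a1 itself correlated with genes detected (rho = 0.33), and with genes detected partialled out the 5 values ran from -0.40 to -0.17.

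Chondrocyte profiles were ordered by Col10a1 and split into 4 bins of 44, and the shares of the 5 genes were not lowest in the same bin. In the second bin (Col10a1 of 2.14 to 7.58) Inhba was detected in 90.9%, F3 in 72.7% and Il11 in 84.1%. In the third bin (7.60 to 10.14) Inhba was at 45.5% and F3 at 52.3%, while Il11 was at 77.3% and Hbegf at 88.6%. In the top bin (10.25 to 14.62) Inhba was at 56.8%, F3 at 52.3%, Il11 at 47.7%, Hbegf at 59.1% and Cthrc1 at 40.9%. Inhba thus had its lowest share 1 bin below Il11, Hbegf and Cthrc1, a difference that was not tested. The median number of genes detected was 3063, 3528, 3504 and 3610 from the lowest to the highest bin, and its part in these shares was not tested.

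Spry2 went with all 5 genes. Its rho was 0.45 for Inhba, 0.36 for Il11, 0.28 for Cthrc1, 0.24 for Hbegf and 0.23 for F3, with a median of 0.28. All 5 were at 0.2 or above, and so were 5.19% of the other genes. For all 5 genes the widest step in detection lay between the lowest of 4 bins of Spry2 (0 to 5.74) and the next. Cthrc1 was detected in 25% of the 44 profiles of that bin and in 61.4%, 70.5% and 68.2% of the next 3. Il11 was at 40.9% in the lowest bin and at 84.1%, 84.1% and 79.5% above it. Inhba was higher in each successive bin, at 40.9%, 65.9%, 77.3% and 88.6%, and so was F3, at 40.9%, 54.5%, 63.6% and 72.7%. Hbegf was at 59.1%, 79.5%, 88.6% and 81.8%. The median number of genes detected was highest in the lowest Spry2 bin, at 3649.5. Spry2 was undetected in 13 profiles, of which 5 had Il11 and 2 had F3.

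**Figure D4:**
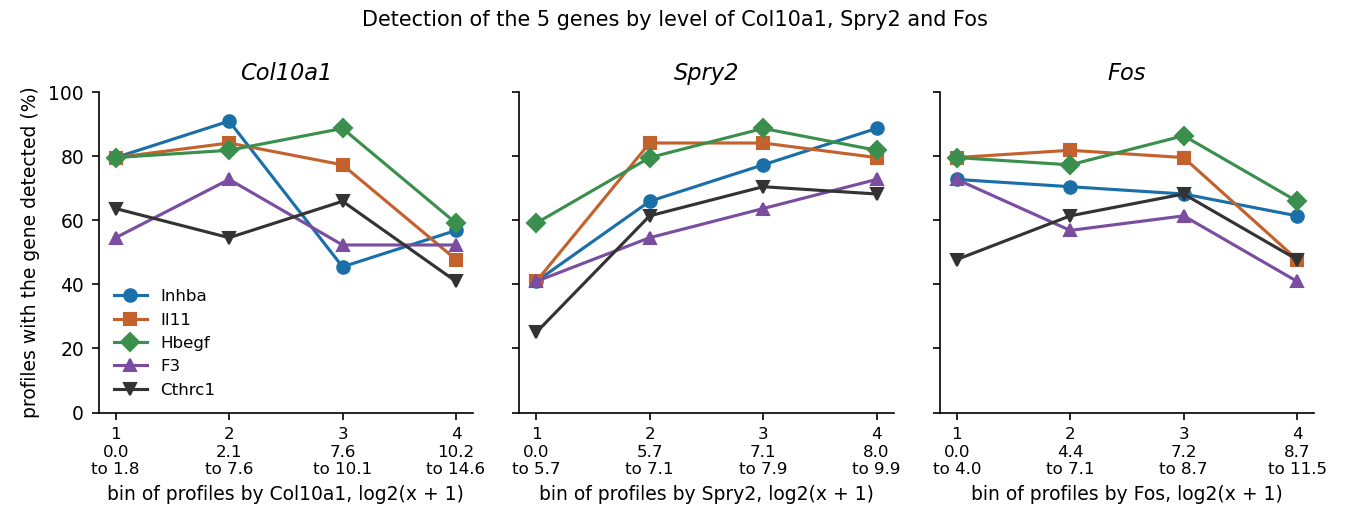
Share of profiles with each gene detected (vertical axis, percent) in 4 bins of 44 profiles ordered by Col10a1, Spry2 or Fos (horizontal axis, with the range of each bin on the log2(x + 1) scale). Within the Spry2 panel all 5 shares are lowest in the first bin, and in the Fos panel all 5 are lowest in the last bin, where Cthrc1 has the same 47.7% as in its first.

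The relation to Fos was weak and mostly negative. Its rho was -0.24 for Il11, -0.21 for F3, -0.20 for Inhba, -0.08 for Hbegf and 0.01 for Cthrc1, with a median of -0.20. Of the 5, 3 were at -0.2 or below, as were 1.02% of the other genes. F3 had a median of 2.96 in profiles with Fos and 6.29 in the 26 without. Inhba had 5.66 with Fos and 7.69 without, whereas Cthrc1 had 4.04 with Fos and 0 without. In the top of 4 bins of Fos (8.69 to 11.45) Il11 was detected in 47.7% and F3 in 40.9%, against 79.5% and 72.7% in the lowest bin. Genes detected were most numerous in the top bin, with a median of 3655.5. Fos and Col10a1 themselves correlated at 0.34, and with Col10a1 partialled out the median rho of the 5 genes with Fos was -0.09.

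Fos and its partners bind the AP-1 motif, so the promoters of the genes were read for it. The windows are those of RefSeq on GRCm38.p6, which has the coordinates of the mm10 build named in the submitters' processing notes, from 250 bases before to 50 after an annotated start. They were used for 3 of the 5 genes, Inhba, Il11 and F3. No window was at hand for Cthrc1, and Hbegf was not searched. The motif TGANTCA, which reads the same on both strands, was found in the F3 window and in 1 of the 2 Il11 windows. It was found in 7.81% of all 32851 windows of this length. The 2 windows that hold it are shown because they allow its place to be seen, with the motif in capitals. The F3 window lies at chr3:121723287-121723586 on the plus strand and holds it at positions -146 and -135 from the start. The Il11 window lies at chr7:4778092-4778391 on the minus strand and holds it at -98.
F3: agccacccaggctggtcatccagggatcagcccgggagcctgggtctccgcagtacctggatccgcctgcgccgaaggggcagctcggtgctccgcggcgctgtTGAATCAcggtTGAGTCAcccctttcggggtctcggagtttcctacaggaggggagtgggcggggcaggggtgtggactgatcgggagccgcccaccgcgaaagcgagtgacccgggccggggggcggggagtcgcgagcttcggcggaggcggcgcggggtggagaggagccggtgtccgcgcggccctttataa
Il11: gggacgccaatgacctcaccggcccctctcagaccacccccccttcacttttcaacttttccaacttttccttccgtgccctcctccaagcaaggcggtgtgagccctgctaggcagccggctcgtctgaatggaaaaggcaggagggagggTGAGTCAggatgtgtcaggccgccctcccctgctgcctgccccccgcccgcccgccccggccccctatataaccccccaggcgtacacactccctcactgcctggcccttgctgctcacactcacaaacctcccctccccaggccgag
The other Il11 window, at the upstream start (chr7:4782808-4783107), and the Inhba window (chr13:16011601-16011900) hold no such letters, which says only that they are not in these windows. Of 3 further motifs, searched on both strands and overlapping no AP-1 match in these windows, TGACGTCA and GGAATG were in none of the 4 windows (1.79% and 14.7% of all windows hold them). TATAA was in the F3 window, the Inhba window and the downstream Il11 window, and in 24.9% of all windows. A match is a description of the letters and not a binding site, and any part of AP-1 in the levels of these genes was not tested.

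The genes lie on 5 different chromosomes, so they are not neighbours. In GENCODE vM21 on GRCm38, Inhba lies at chr13:16011851-16031621 (plus strand), Il11 at chr7:4772373-4782859 (minus), F3 at chr3:121723537-121735048 (plus) and Cthrc1 at chr15:39076932-39087121 (plus). Hbegf lies at chr18:36504927-36515805 (minus). All are protein-coding. A feature that the choice did not use is the letters ATTTA in the 3' untranslated region, a core of the AU-rich elements that are known to shorten the life of many cytokine mRNAs. In the transcript with the longest coding part, F3 held 7 copies in 809 bases, or 8.65 per kb, and Cthrc1 3 in 356 bases, or 8.43 per kb. Il11 held 10 in 1194 bases (8.38 per kb), Inhba 21 in 4492 (4.67) and Hbegf 4 in 1456 (2.75). The median over 8720 measured genes was 1.35 per kb, and the share of those genes at or above each value was 1.51% for F3, 1.67% for Cthrc1, 1.71% for Il11, 8.31% for Inhba and 24.6% for Hbegf. The overlapping form ATTTATTTA was present 3 times in Il11 and 1 time in F3, and in 5.81% of all these genes. RNA stability was not measured, and 5 genes chosen on other values are too few to set apart from the rest.

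The genes that most resembled the 5 were named by their rho with the mean rank score of the set, among 5375 genes. Sox9 was first at 0.51, followed by Ptgs2 (0.50), which encodes the inducible cyclooxygenase of prostaglandin synthesis, Sox11 (0.48), a transcription factor of progenitors, and Spry2 (0.48). Sdc4, a cell surface heparan sulfate proteoglycan, was at 0.47, Plaur, the receptor of the urokinase plasminogen activator, at 0.47, and Pcnp, Foxn2, Ccrn4l and Itm2a were between 0.45 and 0.44. A rho of 0.2 or more with all 5 genes was found for 15 genes, and 4851 genes reached it with none. Beside those just named the 15 held Ywhae, a close partner of Il11, and, among others, Prelp, Epyc and Cycs, which are named after their values were seen. Sox9 was detected in every profile, and its median by number of the 5 genes detected went up without a break, from 6.96 with none through 7.54, 8.02, 8.66 and 9.22 to 9.44 with all 5. Its rho with genes detected was -0.28, and with genes detected partialled out its rho with the score was 0.56. Sox9 was also at -0.48 with Col10a1 and 0.47 with Spry2, both used in choosing the 5 genes. Ptgs2 was at -0.18 and 0.33 with these, and Sox11 at -0.41 and 0.34. How much of the relations with the score comes from Col10a1 or Spry2 was not tested.

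At the opposite end stood Ccdc80 at -0.49, Eef2, a translation elongation factor, at -0.45, Cpe, a carboxypeptidase, at -0.42 and Pmp22 at -0.41. Map1lc3b and Gabarap, both ATG8 family proteins of autophagy, were at -0.40 and -0.38, Ptgis, which makes prostacyclin, at -0.39, Gapdh at -0.39, Ftl1 at -0.37 and Myo5a at -0.37. Ccdc80, Eef2, Map1lc3b and Gabarap were the 4 genes at -0.2 or below with all 5. Many of these ran with collagen X: the rho with Col10a1 was 0.59 for Ccdc80, 0.52 for Ptgis and 0.50 for Cpe. The share of these relations that comes from Col10a1 was not tested.

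Gene by gene, the closest partners were partly shared. Ptgs2, Spry2, Plaur, Sox11, Sox9, Ywhae, Pcnp, Sdc4 and Ccrn4l, named below for single genes, are among those at 0.2 or above with all 5. Inhba was closest to Ptgs2 (0.45), Spry2 (0.45), Plaur and Sox11 (0.41 each) and Hnrnpa0 (0.39), and farthest from Ccdc80 (-0.36), Col10a1 (-0.35) and Eef2 (-0.35). Il11 was closest to Sox9 (0.49), Golt1b (0.42), a protein of Golgi transport, Sox11 (0.42), Ywhae (0.40) and Flrt1 (0.38), and farthest from Ccdc80 (-0.44), Gabarap (-0.39) and Cpe (-0.38). Hbegf was closest to Ndrg1 (0.39), a gene that hypoxia induces, then F3 (0.37), Sox9 (0.33), Il11 (0.33) and Tet2 (0.32), with Ptgis (-0.29), Ccdc80 (-0.28) and Cpe (-0.27) at the other end.

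F3 had Hbegf (0.37) and then Fbln7 (0.36), Kcnk3 (0.34), Pcnp (0.34) and 2410002F23Rik (0.33) above it, and Fabp3 (-0.31), Eef2 (-0.28) and Ftl1 (-0.27) below. Cthrc1 was closest to Fbln7 (0.45), the gene of a fibulin of the matrix, Sdc4 (0.37), Hnrnpa0 (0.36), Ado (0.36) and Ccrn4l (0.35). Its lowest partners were Bnip3 (-0.40), a mitochondrial protein of autophagy and cell death, Gapdh (-0.40), a glycolytic enzyme, and Mif (-0.37), a cytokine. Bnip3 was also at -0.26 with Inhba and with Il11 and at -0.22 with F3, and Gapdh at -0.24, -0.25 and -0.23 with these 3 genes, so neither was particular to Cthrc1. No member of the set was among the 5 closest genes of Inhba, Il11 or Cthrc1.

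The receptors and pathway partners of the 5 proteins were patchily measured. Of 17 activin and inhibin genes 9 were measured, with a median detection of 27.3%. The activin receptor Acvr2a was detected in 15.9% of profiles and the activin antagonist Fst in 3.98%. Of the 4 list genes other than Inhba with detection of at least 20%, Fstl1, a follistatin-like protein, had a rho of 0.26 with the score of the 5 genes. Smad4, the shared SMAD, was at -0.11, Smad7, an inhibitory SMAD, at -0.15 and Bambi, a decoy receptor, at -0.24. The correlation with Inhba itself was 0.19 for Fstl1 and -0.18 for Smad7. In the IL-6 family, 10 of 16 genes were measured. Il6st, the gene of gp130, was detected in 54% of profiles and had a rho of -0.12 with Il11. The oncostatin M receptor Osmr was at 0.20 with the score and the LIF receptor Lifr at 0.15, while Stat3 was detected in 11.9% and Socs3, a feedback inhibitor, in 13.64%. Clcf1, another ligand of the family, was detected in 11.4%, Il6ra in 19.3%, and Jak1 in 90.9% with a rho of -0.11.

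Of 15 genes of the EGF receptor list 7 were measured. Tgfa, another ligand, was detected in 6.25%, the receptor gene Erbb2 in 13.1%, Adam17, a protease that sheds Hbegf, in 5.68%, Lrig1 in 11.4% and Adam10 in 43.2%. Errfi1, an inhibitor that EGF receptor signalling induces, was detected in 98.9% of profiles. Its rho was 0.35 with the score, 0.27 with F3, 0.30 with Cthrc1 and 0.19 with Hbegf. Egfr was not analysed here. Among 16 clotting and plasminogen genes, 11 were measured. Thbd, the gene of thrombomodulin, which restrains clotting, was detected in 31.8% with a rho of 0.28 with the score and 0.16 with F3. Plaur had a rho of 0.32 with F3. Anxa2 and Anxa5, found in all profiles, were at -0.16 and -0.24 with the score. F2r, Tfpi2, Plau and Plat were each detected in at most 6.25%, and Serpine2 in 17%. Of 16 genes of the Cthrc1 and noncanonical WNT list, 7 were measured. Rhoa (-0.23), Rac1 (-0.12) and Prickle1 (-0.02) lay below 0 with the score, and Fzd3, Ror2 and Ryk were detected in 8.52%, 17.6% and 7.95%.

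Among the wider lists the clearest positive one was that of ERK feedback genes. All 8 members with detection of at least 20% lay above 0 with the score, at a median of 0.19, against a median of 0.02 over 5375 genes of which 3008 lay above 0. Beside Spry2 they were Ier3 (0.34), Dusp6 (0.29), a phosphatase of ERK, Spry4 (0.20), Spred1 (0.19), Phlda1 (0.16), Etv5 (0.08) and Dusp5 (0.02). Spry2 is part of how the genes were chosen, and Ier3 also stands in the immediate-early list. The AP-1 and immediate-early list had a median of -0.11 with 5 of 17 above 0. Over all 5375 genes, 231 were at -0.2 or below and 395 at 0.2 or above, so the counts of this list are not read further. Its 1 gene at -0.2 or below was Fos (-0.22), which is part of how the genes were chosen. In the list 2 were at 0.2 or above, Ier3 and Fosl1 (0.22), another AP-1 subunit, which was at 0.28 with Inhba. Between Fos and these lay Fosb (-0.19), Ier2 (-0.17), Atf3 (-0.15), Jun (-0.13) and Klf4 (0.15).

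Over all 5375 genes, 3008 lay above 0, and the counts of the lists that follow are not read further. The hypertrophic list had a median of -0.19 with 9 of 10 genes below 0, among them Mef2c (-0.27), Ihh (-0.24) and Panx3 (-0.22), and Sp7 at 0.04. Col10a1 (-0.37), the lowest of the 10, is part of how the genes were chosen. The resting list was divided: Sfrp5 and Ucma were at 0.24 and 0.21, and Cd200, Frzb and Nt5e at -0.31, -0.25 and -0.23. The chondrocyte list had a median of 0.12 (11 of 15 above 0) and spanned Sox9 at 0.51, Epyc at 0.39 and Col9a2 at 0.36 to Acan at -0.27 and Comp at -0.34. The TGF-beta list was at 0.08, with Tgfbi at 0.31, and the YAP and mechanical list at 0.07, where none of 7 genes was at 0.2 or above, against 395 of 5375 over all genes. The osteoblast list, which shares Ibsp and Sp7 with the hypertrophic list, was at -0.15, with 2 of 6 genes above 0. The perichondrial list was at -0.07, with 1 of 4 above 0. Within them, Col1a2 and Col3a1, fibrillar collagens of bone and fibrous tissue, were at 0.18 and 0.17 with the score and at 0.25 and 0.29 with Cthrc1, while Smpd3 was at -0.35 with the score. Their part in the relations of Cthrc1 was not tested. Of the cell cycle list, Pcna alone was detected widely enough, at 0.17. In the 95 profiles with 4 or 5 of the genes and the 27 with 0 or 1, the summed level of the 10 osteoblast genes had medians of 27.7 (13.1 to 75.9) and 32.6 (17.96 to 58.6), and that of the 2 endothelial and of the 4 macrophage genes had medians of 0 in both.

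**Figure D5:**
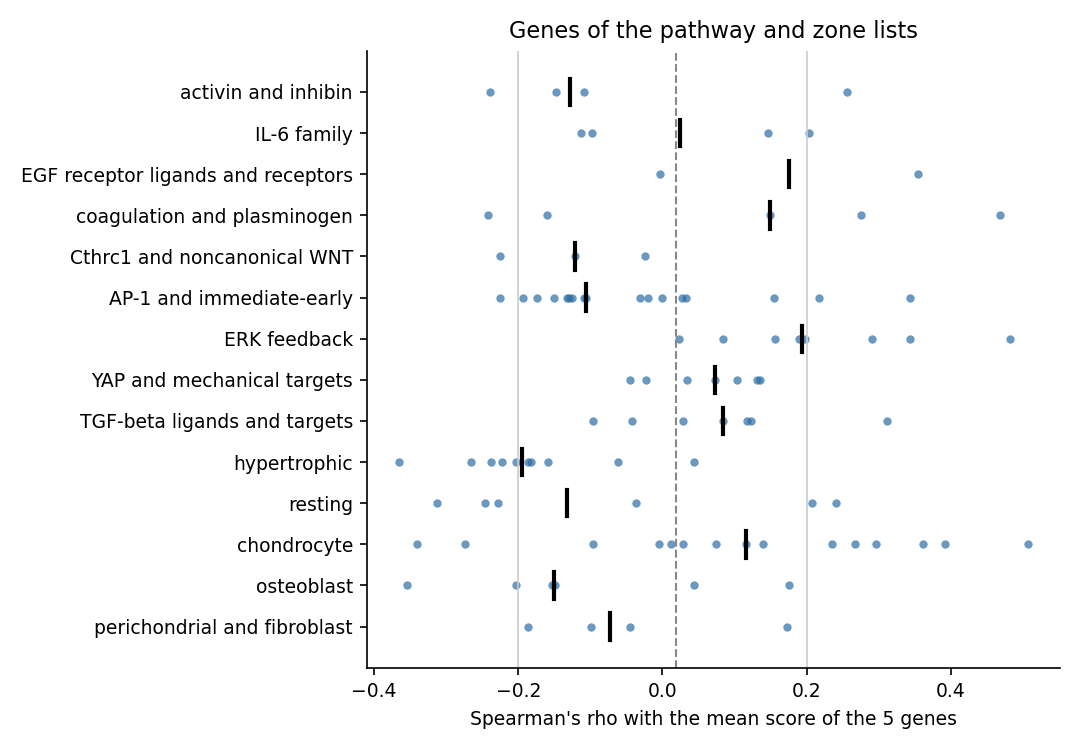
Spearman's rho over chondrocyte profiles between single list genes (points) and the mean rank score of the 5 genes, by list. Black bars are list medians, the dashed line is the median of 5375 genes (0.02) and the grey lines mark -0.2 and 0.2. Every ERK feedback gene lies above 0, as do 3008 of the 5375 genes, and 9 of the 10 hypertrophic genes lie below it. The ERK list holds Spry2 and the hypertrophic list Col10a1, both used in choosing the 5 genes.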

How the data were processed

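Single-cell RNA of the growth plate was measured with SMARTer cDNA and Nextera XT libraries, per the labels' protocols. TopHat and mm10 are named in the submitters' processing notes. No source used here names the quantifier, the annotation, the filters or what was normalized. The authors deposited log2 values. Base 2 and a pseudocount of 1 were inferred: totals after back-transformation varied least with base 2 (coefficient of variation 7.33%), against 14.8% for base e and 190.5% for base 10. No other pseudocount was tried. Scaling for depth by the authors is inferred from these totals and is stated in no source used here, and depth per cell is unknown. Each gene is above 0 in at least 10 columns, and 1 row without a name was left out.

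The genes, lists, motifs and alternatives were chosen with earlier results of these data known. Columns were averaged where r exceeded 0.95, which left 187 profiles, 176 of them with Acan of at least 5, and no doublet caller was run. Spearman's rho was computed over these 176 profiles, for genes detected in at least 20% of them. The mean score is the mean standardised rank of the 5 genes. Pairs were called at 0.2. Genes named are the 5 members, Acan, Col10a1, Spry2 and Fos, the 5 highest and 3 lowest partners of each member, the 10 highest and 10 lowest of the score, and the genes of the ligand lists, a few of which are not reported here. Genes of other lists were named after their values were seen. The alternatives were detection above 0 or at 10, repeats kept apart, the mixed column kept, no Acan minimum or one of 8, Pearson's r, partial correlation, removal of the 10% of profiles lowest in genes detected, upper-quartile scaling and profiles with both genes detected. Promoter windows came from RefSeq, and transcripts from GENCODE vM21. The rank correlation was checked on shuffled values of these data with planted relations, and the finding of repeats on a copied column with noise added. The other steps were not checked in this way. The tools were SciPy 1.17.1, pandas 2.3.3, NumPy 2.4.6 and matplotlib 3.10.9 under Python 3.11.15.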

Additional observations from a re-analysis of the deposited data

How the results depend on the processing

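Of 70 recomputed summary values, 62 stayed close to the value reported (within 0.1 for a rho, 1.5 times for a count, or the 95% interval for a share). The other 8 were these. With detection set at 10, the median share of the 5 genes was 55.7% in place of 68.2%. In profiles with both genes detected, the median pairwise rho was 0.128, the pairs at 0.2 or above numbered 3, and the medians with Spry2 and Fos were 0.142 and -0.101. In these profiles Il11 with F3 (-0.035), Il11 with Cthrc1 (-0.00051) and F3 with Spry2 (-0.029) changed sign. This setting removes the zeros. With Spry2 or with Sox9 partialled out, 5 pairs were at 0.2 or above, and with Col10a1 partialled out the median with Fos was -0.095; these 3 settings were chosen after the data were seen, and the cause of their effect was not tested. Over all settings the median pairwise rho ran from 0.13 to 0.32, that with Col10a1 from -0.31 to -0.14. No paired analysis was possible because all cells are 1 group. Depth and animal are unknown, so counting intervals leave out the spread between animals.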
